A study of Mus musculus with 9 samples.

Results

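The RING1B peaks studied here are those whose nearest gene, as the authors assigned it, carries the name of a receptor for peptides, hormones, lipid mediators or chemokines, or of an orphan receptor. A peak was a member when its gene name began with Gpr, Sstr, Galr, Ntsr, Lgr, Npy, Npffr, Lpar, S1pr, Ptger, Celsr, Cxcr, Ccr, Tacr or Oxgr followed by a digit, or was Npr3, Crhr1, Crhr2, Mc4r or Oprk1. The name rule gave 61 of the 4157 peaks of the series, 26 of 1810 in the Eed-/- list and 35 of 2347 in the Eed+/+ list. No member gene had more than 1 peak in a list, so the 61 peaks belong to 39 genes.

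Both lists come from ChIP-seq of RING1B in C57BL/6 mouse embryonic stem cells (mESCs) grown with leukemia inhibitory factor on inactivated embryonic fibroblast feeders, which were depleted by pre-plating before harvest. Eed-/- cells lack Eed, a core subunit of the Polycomb repressive complex PRC2, and were compared with wild-type Eed+/+ cells. The labels number 3 Eed-/- RING1B samples, which the methods describe as lanes of 1 sample, and 1 Eed+/+ RING1B sample. Only 1 peak list per genotype was used, so there is no replicate error, no test between genotypes was possible, and the intervals given cover counting error alone. How the Eed-/- cells were derived, and whether they are 1 clone, is not given in the sources used here.

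G-protein-coupled receptors are cell-surface proteins that cross the membrane in a bundle of helices and pass the binding of a ligand outside the cell to heterotrimeric G proteins inside it. Most of the peptide, lipid and chemokine receptors act in differentiated tissues such as brain, gut and the immune system. RING1B is the E3 ligase of PRC1 that places ubiquitin on lysine 119 of histone H2A, and PRC2 places the trimethyl mark on lysine 27 of histone H3, which CBX proteins of PRC1 can bind. In mESCs both complexes sit on CpG islands of silent developmental genes, and the comparison asks which of these receptor loci still carried RING1B when PRC2 was lost.

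The sequence under the receptor peaks was rich in CG dinucleotides, and 3 stretches from genes with a peak in both lists are shown because they carry high levels or enrichments of RING1B. Each is the 200 bases with most CG dinucleotides in the part common to both peaks, outside annotated untranslated exons, from the mm9 assembly, plus strand, with each CG in capitals. The Ptger3 window (chr3:157230388-157230587) held 27 CG dinucleotides, the Npr3 window (chr15:11834880-11835079) 31 and the Gpr25 window (chr1:138156964-138157163) 37. All 3 windows lie in coding sequence, and since each was chosen for its CG count, that count does not describe the whole peak. Over whole receptor peaks the median was 5.81 CG dinucleotides per 100 bp in the Eed-/- list and 5.32 in the Eed+/+ list. Over all peaks of these lists it was 6.20 and 5.01, and the genome as a whole has 0.834.
Ptger3: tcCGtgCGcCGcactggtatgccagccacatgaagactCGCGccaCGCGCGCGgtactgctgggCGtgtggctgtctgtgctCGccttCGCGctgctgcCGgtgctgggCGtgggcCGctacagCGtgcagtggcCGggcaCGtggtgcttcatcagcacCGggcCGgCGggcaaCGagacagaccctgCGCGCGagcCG
Npr3: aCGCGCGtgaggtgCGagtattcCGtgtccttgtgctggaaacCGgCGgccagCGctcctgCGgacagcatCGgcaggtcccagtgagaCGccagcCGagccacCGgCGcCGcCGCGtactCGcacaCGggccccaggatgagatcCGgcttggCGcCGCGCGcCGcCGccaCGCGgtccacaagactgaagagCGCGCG
Gpr25: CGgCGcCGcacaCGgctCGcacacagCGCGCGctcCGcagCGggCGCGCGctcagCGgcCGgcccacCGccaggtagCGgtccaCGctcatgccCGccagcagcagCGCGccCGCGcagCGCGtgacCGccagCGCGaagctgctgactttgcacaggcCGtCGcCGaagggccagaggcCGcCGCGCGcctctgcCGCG

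A further 3 stretches, chosen the same way within the single peak, come from genes with a peak in 1 list only. Ntsr2 (chr12:16660567-16660766, 24 CG dinucleotides, coding) and Gpr133 (chr5:129601259-129601458, 6 CG dinucleotides, upstream of the gene) had only an Eed-/- peak, and Gpr133 is shown because its peak is the 1 receptor peak without a CpG island. Gpr50 (chrX:68917562-68917761, 30 CG dinucleotides, not coding) had only an Eed+/+ peak, with the highest fold enrichment of that class.
Ntsr2: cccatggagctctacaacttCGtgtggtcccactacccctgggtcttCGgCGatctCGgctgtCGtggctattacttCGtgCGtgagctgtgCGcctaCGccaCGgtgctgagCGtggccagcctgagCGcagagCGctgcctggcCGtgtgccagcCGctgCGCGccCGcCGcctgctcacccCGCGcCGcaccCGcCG
Gpr133: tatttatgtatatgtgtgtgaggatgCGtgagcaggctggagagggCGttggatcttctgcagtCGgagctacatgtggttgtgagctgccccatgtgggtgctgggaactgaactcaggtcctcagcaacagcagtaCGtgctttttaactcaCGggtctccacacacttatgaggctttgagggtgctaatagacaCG
Gpr50: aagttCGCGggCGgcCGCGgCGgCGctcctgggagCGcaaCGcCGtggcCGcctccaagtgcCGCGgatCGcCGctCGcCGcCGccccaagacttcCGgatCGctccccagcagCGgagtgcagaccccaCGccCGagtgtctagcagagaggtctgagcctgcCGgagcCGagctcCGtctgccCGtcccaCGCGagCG

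Of the 39 genes, 22 had a peak in both lists, 4 only in the Eed-/- list and 13 only in the Eed+/+ list, where a shared base pair counted as overlap. Among the Eed-/- receptor peaks, 22 of 26 (84.6%, exact 95% interval 65.1 to 95.6) were overlapped by an Eed+/+ peak, beside 73.1% of all Eed-/- peaks. Among the Eed+/+ receptor peaks, 22 of 35 (62.9%, 44.9 to 78.5) were overlapped by an Eed-/- peak, beside 53.1% of all Eed+/+ peaks. Both intervals include the share over all peaks.

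The rule covers 159 genes, of which 158 stand in the annotation under these names and Gpr120 under the synonym O3far1. A peak named 16.4% of the 159 genes in the Eed-/- list, against 6.75% of all 22225 annotated protein-coding genes. In the Eed+/+ list a peak named 22.0% of the 159 genes, against 8.1% of all protein-coding genes. The members were chosen with earlier results of these data known, so these differences are not independent of the choice and were not tested. No peak in either list named the other 120 genes, among them all 4 neuropeptide Y receptors, all 6 Lpar lysophosphatidic acid receptors, both Npffr receptors, the 3 tachykinin receptors, Oxgr1, Crhr2, Mc4r and Oprk1. Ccr9, a chemokine receptor of gut-homing T cells, had its start site in an Eed+/+ peak that the authors named for the neighbouring transporter gene Slc6a20a.

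Levels below are tags per kb of peak per 1000000 mapped tags, so that peaks of different width and libraries of different depth stand on 1 scale. The Eed-/- library, at 70343706 mapped tags, was 4.18 times deeper than the Eed+/+ library, at 16814546. Over the receptor peaks the level had a median of 1.52 in the Eed-/- list (lowest 1.04, highest 2.22), against 4.71 in the Eed+/+ list (2.22 to 13.6). Over all peaks the medians were 1.32 in the Eed-/- list and 4.80 in the Eed+/+ list. The receptor peaks of the 2 lists barely met on this scale, since the highest Eed-/- level, at Ptger3, was close to the lowest Eed+/+ level, at Celsr1. The authors required more than 100 tags of a peak, which demands a higher level in the shallower Eed+/+ library, and the Celsr1 peak held 119. How much of the gap between the lists this filter makes was not tested.

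**Figure D1:**
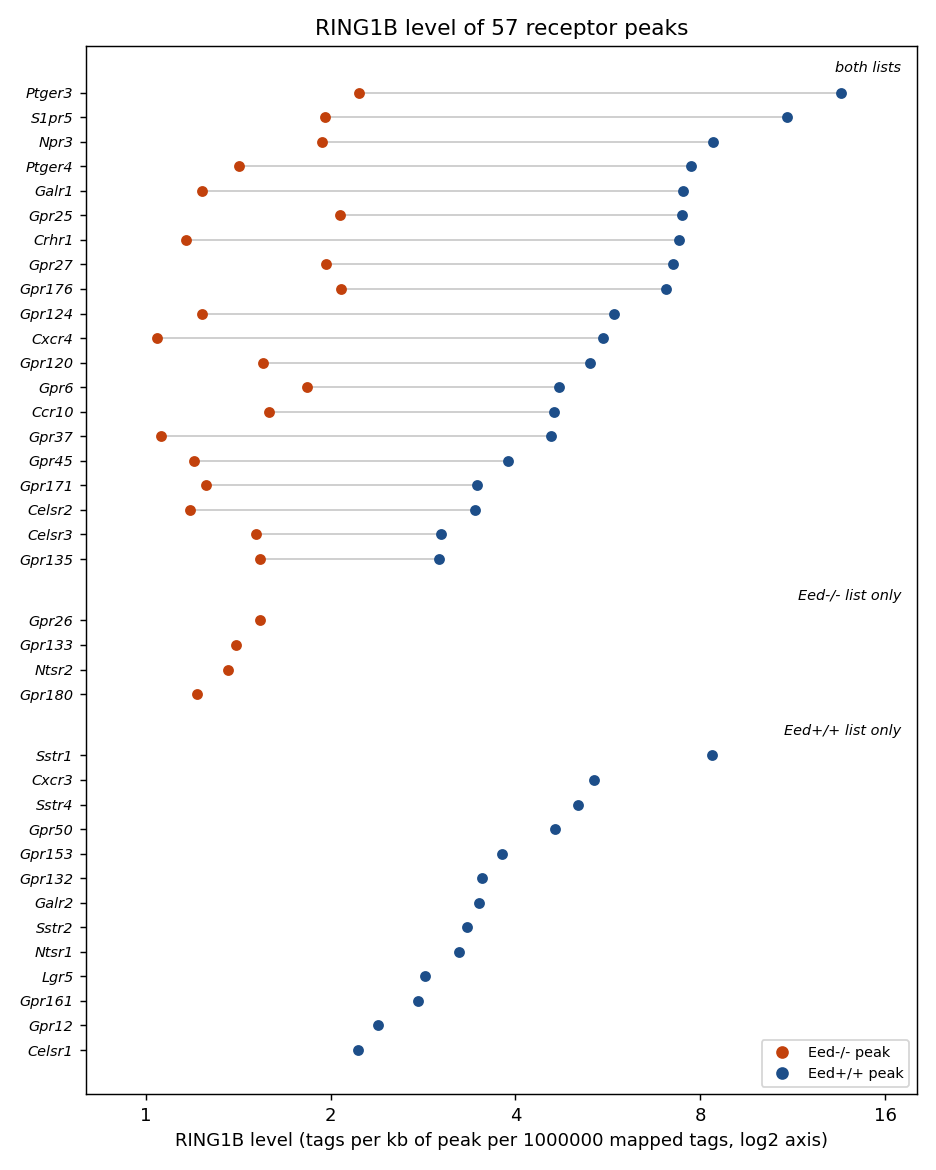
RING1B level of 57 of the 61 receptor peaks (log2 axis, tags per kb of peak per 1000000 mapped tags), with Eed-/- peaks in orange and Eed+/+ peaks in blue. Grey lines join 20 genes with a peak in both lists, and at every one of them the Eed-/- point lies to the left of the Eed+/+ point.

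Receptors for peptide hormones had 3 Eed-/- and 7 Eed+/+ peaks. An overlap with the Eed-/- list was found for 2 of the 7, beside 53.1% of all Eed+/+ peaks, and the difference was not tested. Of the 22 genes of this group, 2 had a peak in both lists (Crhr1 and Galr1), 1 only in the Eed-/- list (Ntsr2), 5 only in the Eed+/+ list (Galr2, Ntsr1, Sstr1, Sstr2 and Sstr4) and 14 in neither. Somatostatin receptors, which inhibit hormone release and adenylyl cyclase, gave 3 Eed+/+ peaks from 5 genes and no Eed-/- peak. The galanin receptor genes divided, Galr1 with a peak in both lists and Galr2 with an Eed+/+ peak alone, and so did the neurotensin receptor genes, Ntsr2 with an Eed-/- peak and Ntsr1 with an Eed+/+ peak. The Ntsr1 peak held 114 tags, so its class rests on a peak near the minimum of more than 100 tags.

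Crhr1 encodes the receptor through which corticotropin-releasing hormone drives the pituitary stress response. Its Eed-/- peak (chr11:103992334-103995536) held 262 tags at a fold enrichment of 5.06 over local background and a level of 1.16, and its Eed+/+ peak (chr11:103992801-103995630) held 352 tags at 27.5-fold and a level of 7.40. The fold enrichments of the 2 lists may rest on different backgrounds, so the comparison was made on the levels. The Eed-/- level was 0.157 of the Eed+/+ level (0.133 to 0.185), and both peaks contained the gene's start site. Galr1, a receptor for the neuropeptide galanin, had a level of 1.24 in the Eed-/- list against 7.51 in the Eed+/+ list, a ratio of 0.164 (0.140 to 0.193).

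Sstr1 had the most tags of the 13 peaks seen only in wild type. The Eed+/+ peak (chr12:59311391-59315428) held 567 tags at 18.6-fold and a level of 8.35, spanned the start site and covered the whole single coding exon, and the nearest Eed-/- peak of any name was 1512547 bp away. At an unchanged level it would have held 2372 tags at the Eed-/- depth. Sstr4 (chr2:148220520-148222738) had 189 tags, 14.4-fold and a level of 5.07 in the Eed+/+ list, again over the start site and the whole coding exon. The other peptide receptors of this class, Galr2, Sstr2 and Ntsr1, had Eed+/+ levels of 3.49, 3.34 and 3.24.

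Ntsr2, a neurotensin receptor of the brain, was the 1 peptide receptor named in the Eed-/- list alone. Its peak (chr12:16659647-16661516) held 179 tags at 5.10-fold and a level of 1.36 and contained the start site. At the Eed+/+ depth the same density would give 42.8 tags, which is below the minimum of more than 100 tags that the authors required of a peak.

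Npr3, which the name rule brought in, encodes the clearance receptor for natriuretic peptides and is not a G-protein-coupled receptor by structure, since it lacks the helix bundle of that family and works by internalising its ligand. Its Eed-/- peak (chr15:11832930-11835543) held 356 tags at 8.02-fold and a level of 1.94, the highest fold enrichment among the 26 Eed-/- receptor peaks. Its Eed+/+ peak (chr15:11832913-11837178) held 602 tags at 28.8-fold and a level of 8.39, the most tags of the 35 Eed+/+ receptor peaks. The ratio of the levels was 0.231 (0.202 to 0.263). The Eed-/- peak was 2614 bp wide against 4266 bp in Eed+/+, lay inside it and ended short of it on the side upstream of the start site, which both peaks contained.

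Receptors for lipid mediators had 3 peaks in each list, at the same 3 of 16 genes, and none in a single list. Ptger3 and Ptger4 encode receptors for prostaglandin E2, the first coupled to inhibition and the second to stimulation of adenylyl cyclase, and S1pr5 encodes a sphingosine 1-phosphate receptor of oligodendrocytes and natural killer cells. Their Eed+/+ levels were among the highest of all receptor peaks, and their level ratios lay close together between 0.164 and 0.184.

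At Ptger3 the Eed-/- peak (chr3:157229551-157231475) held 301 tags at 5.35-fold and a level of 2.22, and the Eed+/+ peak (chr3:157229557-157231689) held 486 tags at 25.3-fold and a level of 13.6. Both levels were the highest of any receptor in their list, at rank 37 of the 1810 Eed-/- peaks and rank 19 of the 2347 Eed+/+ peaks. The 2 peaks began 6 bp apart and contained the start site and 75.4% of the coding sequence. At Ptger4 the Eed-/- peak (chr15:5192076-5195072) held 299 tags at 4.49-fold and a level of 1.42, and the Eed+/+ peak (chr15:5191757-5195373) held 470 tags at 26.5-fold and a level of 7.73, both over the start site. S1pr5 had a level of 1.96 in the Eed-/- list against 11.1 in the Eed+/+ list. Its peaks lay 2622 bp (Eed-/-) and 2637 bp (Eed+/+) downstream of the start site and covered the whole coding exon.

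Chemokine receptors guide the migration of leukocytes and, for Cxcr4, of germ cells and neurons as well. Of 18 genes, Cxcr4 and Ccr10 had a peak in both lists and Cxcr3 in the Eed+/+ list only. Cxcr4, the receptor of Cxcl12, had 161 tags and a level of 1.04 in the Eed-/- list, against 185 tags and a level of 5.56 in the Eed+/+ list, a ratio of 0.188 (0.151 to 0.233). Ccr10, a receptor for chemokines of skin and mucosa, had a level of 1.59 in the Eed-/- list against 4.62 in the Eed+/+ list, a ratio of 0.344 (0.284 to 0.416).

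Not every assigned gene was the gene under the peak, and the nearest gene need not be one that RING1B regulates. The Eed+/+ peak (chrX:99044544-99046536) had 180 tags, the second highest fold enrichment of the class at 32.4 and a level of 5.37, but it lay 114936 bp from the start site of Cxcr3 and over a start site of Nhsl2. Gpr171 was a like case, with both its peaks over Med12l and 94411 bp (Eed-/-) and 94103 bp (Eed+/+) from its own start site. The Eed+/+ peaks named for Gpr161 and Gpr132 lay 18933 bp and 14214 bp from the start sites of these genes and over no annotated gene body.

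Lgr5, the R-spondin receptor that marks intestinal stem cells, was the 1 of 3 Lgr genes with a peak, in the Eed+/+ list, with 131 tags at 5.89-fold and a level of 2.85. The Celsr genes encode large cadherins with a receptor-like membrane part that set planar cell polarity, and all 3 were named in the Eed+/+ list. Celsr1 had only an Eed+/+ peak, with 119 tags and the lowest level of the 35, at 2.22. Celsr2 had a level of 1.18 in the Eed-/- list against 3.43 in the Eed+/+ list, and Celsr3 1.51 against 3.03. The Celsr2 peak was the exception in width, at 5368 bp in Eed-/- against 2355 bp in Eed+/+, and its Eed-/- tags were the only ones of the 22 pairs that would exceed 100 at the Eed+/+ depth, at 106. Since a level is divided by the width of its own peak, the Celsr2 ratio depends on these widths. It was 0.343 by level and 0.782 by tags scaled for depth alone.

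Genes with Gpr names made up 96 of the 159 and 15 of the 26 Eed-/- and 17 of the 35 Eed+/+ receptor peaks. A peak in both lists was found for 12 (among them Gpr6, Gpr25, Gpr27, Gpr37, Gpr45, Gpr120, Gpr124, Gpr135, Gpr171 and Gpr176), only in the Eed-/- list for 3 (Gpr26, Gpr133 and Gpr180), only in the Eed+/+ list for 5 (Gpr12, Gpr50, Gpr132, Gpr153 and Gpr161), and in neither for 76. The related constitutively active receptors Gpr6 and Gpr12, which raise cyclic AMP, thus fell in different classes, Gpr6 with a peak in both lists and Gpr12 with an Eed+/+ peak alone. The Gpr12 peak held 109 tags at a level of 2.39, so its class rests on a peak near the minimum of more than 100 tags.

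The orphan receptor Gpr135 had the highest level ratio of the 22 pairs, with a level of 1.53 in the Eed-/- list against 3.01 in the Eed+/+ list, a ratio of 0.510 (0.407 to 0.642).

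Gpr176, Gpr25 and Gpr27 had the highest Eed-/- levels of the Gpr names, at 2.08, 2.07 and 1.97, against 7.02, 7.48 and 7.22 in the Eed+/+ list. Gpr176 is a receptor of the circadian clock in the suprachiasmatic nucleus, and Gpr25 and Gpr27 are orphans. With Crhr1 they were also among the 5 Eed-/- receptor peaks with an FDR of 1% or less (19.2%, beside 24.1% of all Eed-/- peaks). All 35 Eed+/+ receptor peaks had one, beside 99.9% of all Eed+/+ peaks. Gpr6 followed with a level of 1.83 in the Eed-/- list against 4.71 in the Eed+/+ list. Gpr120, a receptor for long-chain fatty acids, had 1.55 in the Eed-/- list against 5.30 in the Eed+/+ list. Gpr37, Gpr45, Gpr124 and Gpr171 had Eed-/- levels between 1.06 and 1.25 and Eed+/+ levels between 3.46 and 5.78. Gpr37 is a receptor-like substrate of parkin, and Gpr124 acts in brain angiogenesis.

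Of the peaks seen only in the Eed-/- list, Gpr26 (chr7:139158010-139159602) had 172 tags, 4.41-fold and a level of 1.53, Gpr133 (chr5:129601259-129602485) had 121 tags, 4.82-fold and a level of 1.40, and Gpr180 (chr14:118535137-118537223) had 178 tags, 4.04-fold and a level of 1.21. The Gpr26 and Gpr180 peaks contained a start site of their gene and the Gpr133 peak ended 140 bp from one. Together with Ntsr2, these 4 peaks would hold 28.9 to 42.8 tags at the Eed+/+ depth, so a peak of the same level could not have entered the Eed+/+ list. Among all 487 peaks seen only in the Eed-/- list, 18 (3.70%) would have exceeded 100 tags. Why the 4 receptor peaks have no Eed+/+ counterpart was not tested.

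Of the Gpr peaks seen only in the Eed+/+ list, Gpr50, a melatonin-receptor relative, had the highest fold enrichment of the 35 Eed+/+ receptor peaks. It held 142 tags (chrX:68916662-68918479) at 34.7-fold and a level of 4.65 over a start site of the gene. Gpr132 (chr12:114113341-114117219), a receptor of immune cells, had 230 tags, 14.1-fold and a level of 3.53 at the distance from its gene given above. Gpr153, Gpr161 (a ciliary receptor of the hedgehog pathway) and Gpr12 had levels of 3.81, 2.78 and 2.39. At an unchanged level the 13 peaks seen only in the Eed+/+ list would have held 456 to 2372 tags at the Eed-/- depth, and all 1100 such peaks of the whole Eed+/+ list would likewise have exceeded 100. This could not be otherwise, since every Eed+/+ peak already held more than 100 tags in the shallower library. At a reduced level the peaks would hold fewer, and the paper states that its thresholds miss some Eed-/- peaks. These counts therefore do not show that RING1B was absent there.

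Within the 22 pairs the Eed-/- level was the lower in all 22, and likewise in 1247 of 1247 (100%) pairs of the whole series, so the direction is not particular to receptors. At the Eed+/+ depth the Eed-/- peaks of the 22 pairs would hold 27.7 to 106 tags, and among them only Celsr2 would pass the minimum of more than 100 tags that every Eed+/+ peak met (4.55%, beside 8.10% of all pairs). The counting interval of the ratio lay below 1 in every one of the 22 receptor pairs, and likewise in 1247 of 1247 (100%) of all pairs. The median ratio was 0.252 (quartiles 0.185 and 0.334, highest 0.510), beside 0.225 over all 1247 pairs. By group, the ratios were 0.157 and 0.164 at the 2 peptide receptors, 0.164 to 0.184 at the 3 lipid receptors, 0.188 and 0.344 at the 2 chemokine receptors, 0.343 and 0.501 at the 2 Celsr genes and 0.285 on median at the 12 Gpr names.

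**Figure D2:**
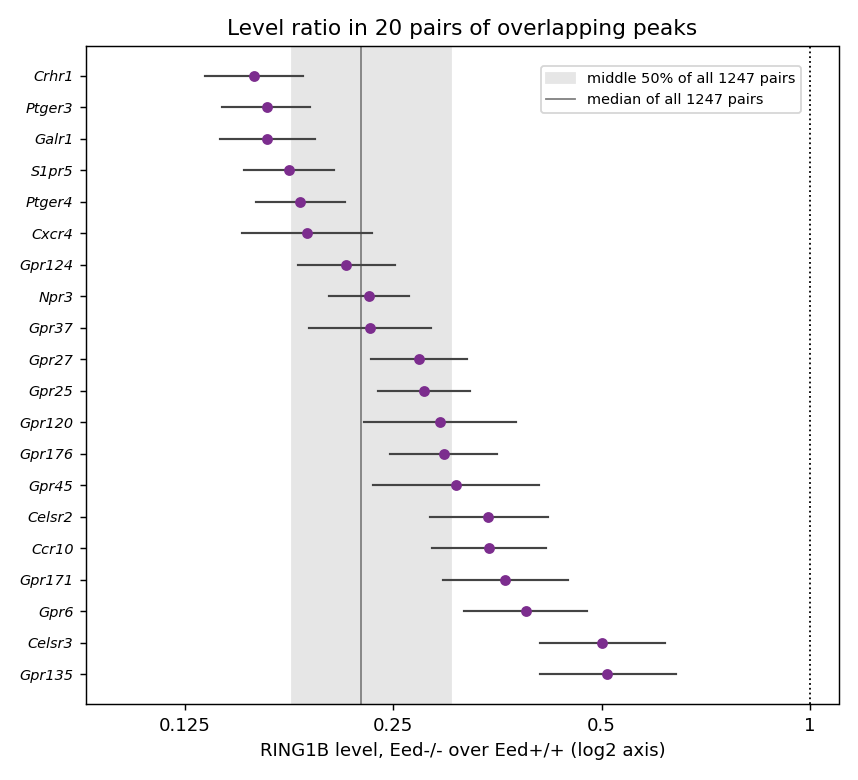
Ratio of the RING1B level, Eed-/- over Eed+/+, for 20 of the 22 genes with a peak in both lists (log2 axis), with exact 95% intervals for counting error as bars. The grey line and band give the median and the middle 50% of all 1247 pairs, and every receptor point and its bar lie left of the dotted line at 1.

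The order of the genes was kept in part between the genotypes. The rank correlation of the Eed-/- with the Eed+/+ level was 0.49 over the 22 receptor pairs, beside 0.41 over all 1247 pairs. Ptger3, S1pr5 and Npr3 were high in both lists and Gpr45, Celsr2 and Gpr171 low in both, whereas Crhr1, Galr1 and Cxcr4 combined a middle or high Eed+/+ level with a low Eed-/- one. These are peaks of 1 library each, and peaks share depth, base composition and the peak caller.

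**Figure D3:**
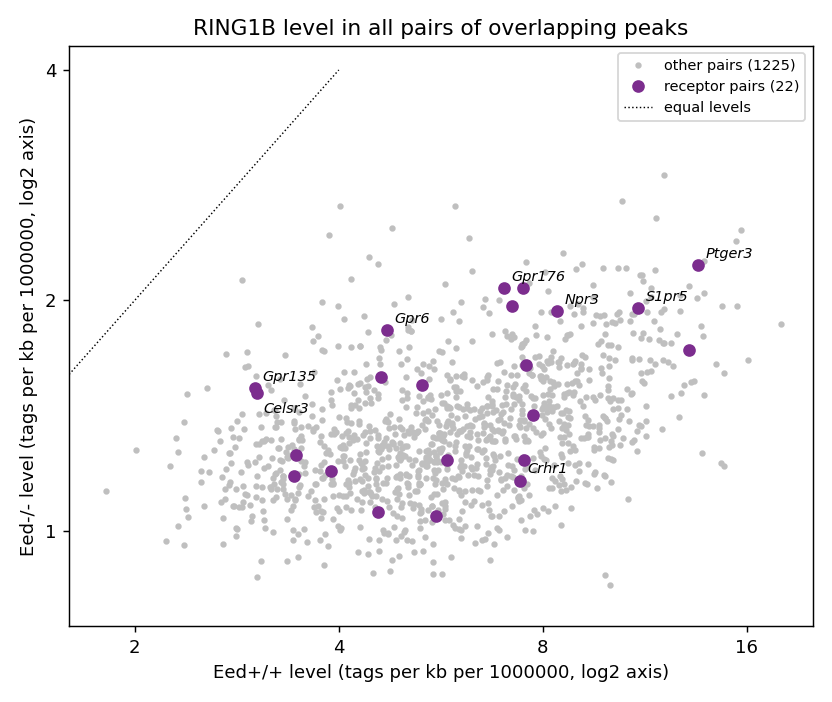
RING1B level of the Eed-/- peak (vertical, log2 axis) against that of the overlapping Eed+/+ peak (horizontal, log2 axis) for the 22 receptor pairs in purple and the other 1225 pairs in grey. All points lie below the dotted line of equal levels, and the receptor pairs spread over most of the range of the others.

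Widths differed less than levels. The Eed-/- peak was on median 0.949 times as wide as the Eed+/+ peak over the receptor pairs (lowest 0.613 at Npr3, highest 2.28 at Celsr2), beside 0.833 over all pairs. It was the wider in 10 of 22 receptor pairs, against 23.7% of all pairs, and lay wholly inside the Eed+/+ peak in 9 of 22, against 57.4%. The summits of the 2 peaks lay within 500 bp of each other in 18 of 22 pairs (81.8%), beside 76.3% of all pairs, with the widest gap, 1050 bp, at Gpr176.

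Most receptor peaks lay at a gene start. A start site was inside or within 1 kb of 24 of 26 Eed-/- receptor peaks (92.3%, 74.9 to 99.1), beside 82.9% of all Eed-/- peaks, and of 31 of 35 Eed+/+ receptor peaks (88.6%, 73.3 to 96.8), beside 79.3% of all Eed+/+ peaks. It was a start site of the named gene itself at 23 Eed-/- receptor peaks (88.5%, beside 73.4% of all Eed-/- peaks) and 29 Eed+/+ receptor peaks (82.9%, beside 69.4% of all Eed+/+ peaks). In these the summit lay downstream of the start site in 17 of 23 Eed-/- peaks (median distance 552 bp) and in 26 of 29 Eed+/+ peaks (median 723 bp). Summit position was not computed over all peaks, so it is not shown to be particular to receptors.

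**Figure D4:**
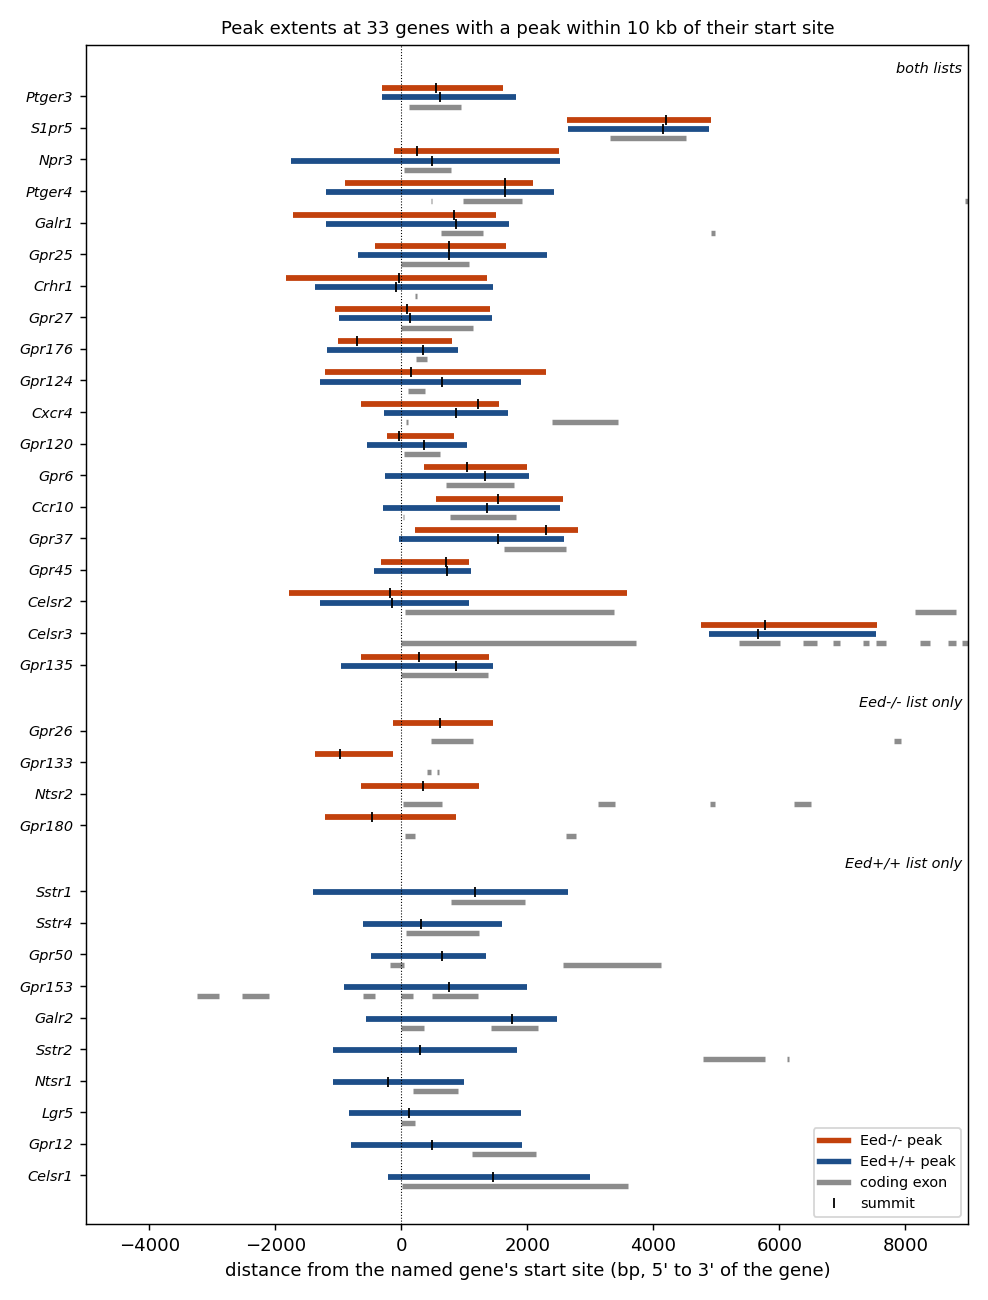
Extents of the receptor peaks relative to the annotated start site of the named gene nearest to the peak (dotted line, distance in bp along the gene), with Eed-/- peaks in orange above Eed+/+ peaks in blue, coding exons in grey and summits as ticks. Shown are 33 genes with a peak within 10 kb, and at most of them the peak runs over the start site and into the coding exons, whereas S1pr5 and Celsr3 lie downstream of it.

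Many receptor peaks ran over coding sequence. They covered at least 50% of the named gene's coding sequence in 15 of 26 Eed-/- receptor peaks (57.7%), against 21.5% of all Eed-/- peaks, and in 19 of 35 Eed+/+ receptor peaks (54.3%), against 22.9% of all Eed+/+ peaks. Many receptor genes are known for short coding regions without introns, and 34.6% of the Eed-/- receptor peaks belonged to a gene with 1 coding exon, beside 9.78% of all Eed-/- peaks. Among the Eed+/+ receptor peaks the share was 34.3%, beside 9.97% of all Eed+/+ peaks. At Gpr6, Gpr25, Gpr27, Gpr135 and S1pr5 the coding exon lay wholly inside both peaks.

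The genes of the rule were also compared by whether a peak named them. Among the 158 annotated genes of the rule, 31.6% of the 38 with a peak in either list had 1 coding exon, against 52.5% of the 120 without a peak. Over all protein-coding genes the shares ran the same way, at 9.91% of those with a peak and 18.7% of those without. An island lay within 1 kb of a start site in 84.2% of the 38 genes with a peak and in 38.3% of the 120 without, beside 91.5% and 53.1% of all protein-coding genes with and without a peak. Of the 78 rule genes with such an island 32 (41.0%) had a peak in either list, beside 15.8% of all protein-coding genes with one, and of the 80 without an island 6 (7.50%) had a peak, beside 1.95%. Here too the members were chosen with earlier results known, and the differences were not tested.

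The peaks themselves were on CpG islands almost without exception. An island was overlapped by 25 of 26 Eed-/- receptor peaks (96.2%, 80.4 to 99.9), beside 95.2% of all Eed-/- peaks, and by 35 of 35 Eed+/+ receptor peaks (100%, 90.0 to 100), beside 94% of all Eed+/+ peaks. The 1 exception was Gpr133, whose Eed-/- peak had 46.1% GC and 0.57 CG dinucleotides per 100 bp. The medians were 59.2% GC and 5.81 CG dinucleotides per 100 bp over the Eed-/- receptor peaks and 59.1% and 5.32 over the Eed+/+ receptor peaks, beside a genome at 41.8% GC. Over all peaks they were close to these, at 60.9% and 6.20 in the Eed-/- list and 58.3% and 5.01 in the Eed+/+ list.

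Genes of the same signalling system were read from lists of ligands, of G proteins with their regulators and effectors, and of other G-protein-coupled receptors. Of 37 ligand genes, 2 were named in the Eed-/- list and 10 in the Eed+/+ list. Cxcl12, the ligand of Cxcr4, had a level of 1.39 in the Eed-/- list against 4.28 in the Eed+/+ list, and Insl3, a testis peptide hormone, 1.93 against 10.4. The R-spondin genes Rspo1, Rspo2 and Rspo3, whose products bind Lgr5, had only Eed+/+ peaks, with levels of 5.68, 5.04 and 4.26, as did Npy, Tac1, Ucn, Nppc and Cxcl14.

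Of 72 genes for G proteins and their partners, 8 were named in the Eed-/- list (8 of 11 peaks overlapped by an Eed+/+ peak) and 15 in the Eed+/+ list (7 of 18 overlapped by an Eed-/- peak). The shares over all features are 6.75% and 8.1% of protein-coding genes named in the Eed-/- and the Eed+/+ list, and 73.1% and 53.1% of their peaks overlapped, and the differences of the 3 gene lists from these were not tested. Adenylyl cyclases, which make cyclic AMP, were the largest set with a peak in both lists, with Eed-/- levels between 1.25 and 1.59 and Eed+/+ levels between 3.37 and 7.96 at Adcy1, Adcy5, Adcy8 and Adcy9. Adcy3 and Adcy6 had only Eed+/+ peaks, with levels of 2.73 at Adcy3 and of 3.59 and 3.36 at Adcy6. Of 168 other G-protein-coupled receptor genes, 33 were named in the Eed-/- list and 48 in the Eed+/+ list. The Eed-/- peaks of these were overlapped in 30 of 33 cases (90.9%) and the Eed+/+ peaks in 30 of 49 (61.2%), with a median level ratio of 0.221.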

How the data were processed

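For each genotype, 1 deposited list of RING1B peaks was read. The authors aligned single-end tags to mm9 (Bowtie), dropped tags without a unique position, and ran MACS, requiring an FDR under 2% and more than 100 tags in a peak. Tool versions and the control library of MACS were not given in the sources used here, so the fold enrichments of the 2 lists may rest on different backgrounds. Each peak carries, as deposited, a raw tag count, a fold enrichment ratio over local background, an FDR in percent, a p-value score and the nearest gene the authors assigned. The 2 CBX7 samples and the 3 input samples were not analysed here. All 3 input samples are labelled as wild type, so the series holds no input from Eed-/- cells.

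Levels were tags per kb of peak per 1000000 mapped tags, with the library totals that the methods give for the Eed-/- (70343706) and Eed+/+ (16814546) RING1B libraries. An overlap needed 1 bp or more, and an Eed+/+ peak with several Eed-/- partners was paired with the one sharing most bases. Shares carry exact Clopper-Pearson 95% intervals, and level ratios exact conditional binomial ones, which cover counting error only. Tags from PCR-amplified libraries are not independent molecules. With 1 list per genotype no test was made.

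Start sites and coding exons came from GENCODE M1 on the mm9 genome. A running score of 17 per CG dinucleotide and -1 per other one marked CpG islands, which needed 200 bp or more, a GC content of 50% and an observed CG frequency of 0.6 of that expected from base composition. Scripts used Python 3.11.15, scipy 1.17.1 and numpy 2.4.6, and the overlap and island steps were tested on simulated data. The members and the gene lists were chosen with earlier results of these data known. Member genes are named with their class, apart from 2 that are not reported here, and position, tags, enrichment, level and distance to the start site are given for the 5 peaks of highest fold enrichment in each class. The G protein list takes names by their start and leaves out Adcyap1, which is a neuropeptide gene. Alternatives changed the overlap, the FDR limit, the gene assignment, the scaling, the distance and the island definition.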

Additional observations from a re-analysis of the deposited data

How the results depend on the processing

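Of 25 alternative values computed for the 8 results with alternatives, 18 stayed within the counting interval of the main value (for median ratios, the interval of the median) and 7 moved outside it. When both lists were restricted to an FDR of at most 1%, 100% of the Eed-/- receptor peaks (5 of 5) and 14.3% of the Eed+/+ receptor peaks (5 of 35) were overlapped, since only 5 Eed-/- receptor peaks pass that limit. A start site lay within 5 kb of 100% of the Eed-/- receptor peaks, and within 1 kb of the midpoint of 73.1% of them. The midpoint lay in a CpG island for 73.1% of the Eed-/- and 74.3% of the Eed+/+ receptor peaks, and islands under the stricter definition (500 bp, 55% GC, a CG frequency of 0.65 of the expected) were overlapped by 88.6% of the Eed+/+ receptor peaks. The median level ratio ranged between 0.219 (tags not divided by width) and 0.343. The value of 0.343 is that of Celsr2 alone, the 1 pair whose Eed-/- tags would exceed 100 at the Eed+/+ depth. It depends on the unlike widths of the Celsr2 peaks. For the authors' fold enrichment, whose background may differ between the lists, the median ratio was 0.278. Keeping only peaks within 1 kb of the named gene's start, an alternative chosen after seeing the data, gave overlaps of 82.6% (Eed-/-) and 65.5% (Eed+/+) and a median ratio of 0.232.

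No paired analysis was possible because the deposited lists hold 1 call per genotype and the numbered samples have no values of their own. For the same reason leaving out a replicate was not possible. At the shallower Eed+/+ depth any of the 4 Eed-/- only receptor peaks would, at the same level, miss the tag minimum. So would all but 1 of the Eed-/- peaks of the 22 pairs, which do have an Eed+/+ peak. Why the 4 lack one was not tested. For the Eed-/- list, the paper states that its thresholds miss some RING1B peaks in the mutant. The 26 Eed-/- receptor peaks had a median FDR of 1.5% and a highest of 1.98%, against a limit of 2%. A missing Eed-/- call therefore does not show that RING1B was absent.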
